A study of Mus musculus with 6 samples.

Results

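The Notch ligands, receptors and targets described here are 10 genes, Dll1, Dll4, Jag1, Jag2, Notch1, Notch3, Notch4, Hey1, Heyl and Hes1, out of 12623 genes in a table of transcript levels of mouse lung endothelial cells (EC). They were chosen by symbol, and each of the 10 had 1 transcript row in the table. RNA-seq had been performed on freshly sorted lung EC of the C57BL/6N strain, used at both ages, with 3 infant and 3 young adult libraries. Infant mice were 8 to 10 days old, a stage of ongoing vessel growth in the lung, and young adult mice were 8 to 12 weeks old, when EC are largely quiescent. According to the study's methods, the sort kept viable cells positive for CD31 and CD34 that were negative for surface markers of leukocytes, lymphatic vessels and erythroid cells. Values are the authors' RPKM, reads scaled to transcript length and to the mapped reads of the library, rounded to 1 decimal. RPKM is a level per length, so genes can be compared with each other. The methods give an average transcriptome coverage, but the sources used here do not say how many reads each library held.

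Notch signalling passes between neighbouring cells. A Delta-like or Jagged ligand on one cell binds a Notch receptor on the next, the proteases ADAM10 and gamma-secretase then release the intracellular domain of the receptor, and this domain joins RBPJ and a Mastermind protein on DNA to induce HES and HEY repressors. In growing vessels DLL4 on sprouting tip cells restrains sprouting of their neighbours, and Notch signalling also favours the arterial fate. NOTCH1 and NOTCH4 are the receptors best known from EC, whereas NOTCH3 is best known from pericytes and smooth muscle cells, together called mural cells.

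The gene regions in GRCm38.p6, introns included, were chr17:15367354-15376932 for Dll1, chr2:119325784-119335666 for Dll4, chr2:137081451-137116520 for Jag1 and chr12:112907803-112929812 for Jag2. For the receptors they were chr2:26457902-26503822 for Notch1, chr17:32120820-32166896 for Notch3 and chr17:34564286-34588543 for Notch4. For the targets they were chr3:8663359-8667038 for Hey1, chr4:123233556-123249870 for Heyl and chr16:30065357-30067796 for Hes1.

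Promoter sequence is shown for the ligand gene and the receptor gene that were called, and for Hey2, a further HEY target chosen after its RBPJ motifs were seen. Windows of 250 bases before to 50 bases after the start site came from RefSeq (GRCm38.p6) and were found for 7 of the 10 genes. The 3 target genes Hey1, Heyl and Hes1 had no window. The RBPJ motif searched was GTGGGAA on either strand, which reads TTCCCAC when it lies on the other one. It was in 0 of the 7 members' windows and in 6.38% of all 32851 windows. The Hey2 window held 2 matches, the first beginning 207 bases and the second 4 bases before the start site. A match is a description of these letters and shows no binding. Dll1 (chr17:15376933-15377182) and Notch3 (chr17:32166891-32167140) are printed for the 250 bases before the start site with CG dinucleotides, the sites of DNA methylation, in capitals, 13 in Dll1 and 17 in Notch3 against a median of 6 over all windows. Dll1 had a second window, chr17:15375774-15376073, with 21 CG dinucleotides before its start site, and the one that borders the gene region given above is printed. Members that were not called had 54 (Jag2), 20 (Jag1), 16 (Notch1), 14 (Dll4) and 4 (Notch4), so these counts do not set the called genes apart. The Notch3 window has its start site just inside the gene region given above, so the printed stretch overlaps the end of that region (chr17:32166896). Hey2 (chr10:30842781-30843033) is printed to the end of its second match with the motif in capitals. All 3 are on the minus strand and written 5′ to 3′.
Dll1: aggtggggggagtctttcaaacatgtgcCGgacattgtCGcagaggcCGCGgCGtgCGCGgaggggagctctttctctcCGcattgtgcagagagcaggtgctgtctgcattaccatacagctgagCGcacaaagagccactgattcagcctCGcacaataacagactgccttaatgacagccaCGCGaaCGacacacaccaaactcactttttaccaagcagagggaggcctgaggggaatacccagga
Notch3: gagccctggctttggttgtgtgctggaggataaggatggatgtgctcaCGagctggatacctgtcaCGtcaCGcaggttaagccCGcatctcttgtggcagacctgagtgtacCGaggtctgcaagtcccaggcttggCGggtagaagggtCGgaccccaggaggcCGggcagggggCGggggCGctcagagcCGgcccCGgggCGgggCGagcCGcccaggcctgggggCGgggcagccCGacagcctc
Hey2: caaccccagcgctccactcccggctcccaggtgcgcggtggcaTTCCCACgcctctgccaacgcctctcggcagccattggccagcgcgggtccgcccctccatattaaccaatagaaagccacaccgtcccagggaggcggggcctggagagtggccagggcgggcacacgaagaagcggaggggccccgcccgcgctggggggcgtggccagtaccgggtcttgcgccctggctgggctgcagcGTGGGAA

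Several properties of the libraries touch the values below. The 13 endothelial markers summed to 3094 to 4566 RPKM in infant and 5012 to 5424 RPKM in young adult libraries, and none was at 0. Egfl7 was the highest of them, at 1004.8 to 1550.5 RPKM in infant and 1846.0 to 1978.2 RPKM in young adult libraries. Markers of mural cells (14 genes) summed to 211.2 to 400.2 RPKM in infant and 99.2 to 110.7 RPKM in young adult libraries, and those of fibroblasts (10 genes) to 368.4 to 1913 and 16.2 to 30.6 RPKM. The sums of leukocyte (6 measured) and epithelial markers (7 measured) overlapped between the ages, at 300.3 to 493.3 against 137.6 to 536.8 RPKM and at 6289 to 11083 against 1738 to 8115 RPKM. Lyz2 made up most of the leukocyte sum, and Scgb1a1 and Sftpc most of the epithelial sum. By gene, all 6 leukocyte and all 7 epithelial markers had a negative log2 fold change. In the comparison described below, 2 of the leukocyte and 3 of the epithelial markers were called lower in young adult EC. Infant replicate 2 stood apart, being the lowest infant library for 10 of the 14 mural and 8 of the 10 fibroblast markers. The 4 Y-linked genes examined summed to 42.2 to 47.0 RPKM in infant and to 0 in young adult libraries, although the methods name female mice, so age and sex cannot be told apart in any comparison here. Because the samples were bulk, fewer cells of a type and less RNA per cell cannot be told apart either.

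To ask which Notch genes change as EC become quiescent, the ages were compared with limma on log2(RPKM + 1). A gene was called when its Benjamini-Hochberg adjusted p over all 12458 tested genes was under 0.05 and its log2 fold change exceeded 0.81 in size, the fold threshold. The ligand gene Dll1 was called higher in young adult EC, and the receptor gene Notch3 and the target gene Heyl were called lower. The receptor genes Notch1 and Notch4 were higher with an adjusted p under 0.05 but stayed under the fold threshold. The other 5 genes, Dll4, Jag1, Jag2, Hey1 and Hes1, did not pass the test. Among all tested genes 3.33% were called higher, against 1 of the 10, and 8.1% were called lower, against 2 of the 10. An adjusted p under 0.05 was reached by 25.5% of tested genes and by 5 of the 10, in the upward direction by 9.26% and 3 of the 10, and in the downward direction by 16.2% and 2 of the 10. Notch3 and Heyl reached the minimum of 1 RPKM for testing in infant libraries alone. The groups did not overlap for 7 of the 10 genes, against 43.4% of all tested genes. Young adult values lay entirely above for 4 of the 10 against 16.4% of tested genes, and entirely below for 3 of the 10 against 27.1%. The median log2 fold change was 0.30 over the 10 genes and -0.07 over all tested genes.

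**Figure D1:**
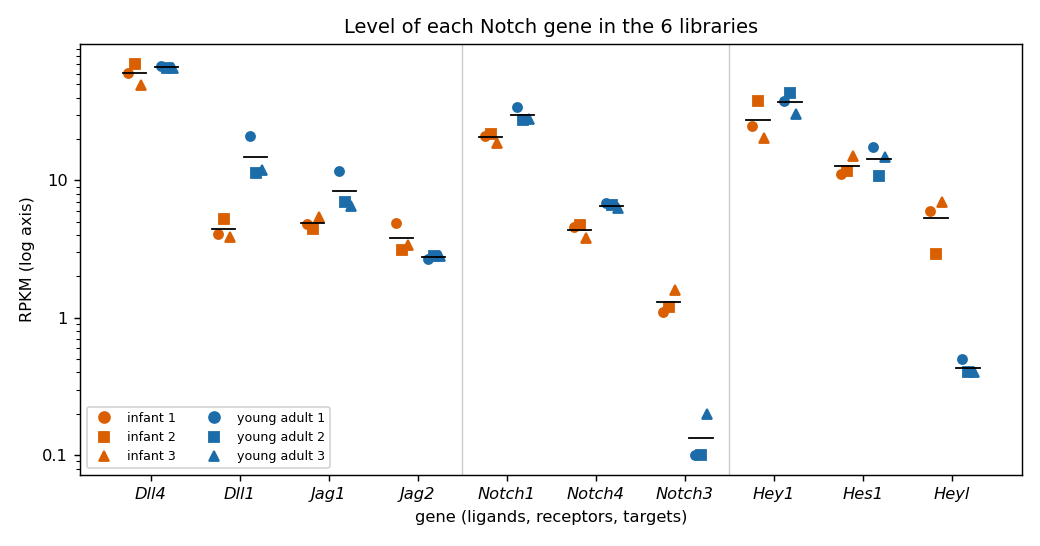
RPKM on a log axis for each of the 10 genes in infant (orange) and young adult (blue) libraries, with the symbol giving the replicate and a black line the mean of 3. Dll1 lies at 3.9 to 5.2 RPKM in infant and 11.4 to 21.0 RPKM in young adult libraries, while Notch3 and Heyl drop to at most 0.2 and 0.5 RPKM.

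Levels of the 10 genes spanned a wide range, 46.4-fold between the highest and the lowest group mean in infant EC. In infant EC the order of mean RPKM was Dll4, Hey1, Notch1, Hes1, Heyl, Jag1, Dll1, Notch4, Jag2 and Notch3. From Heyl to Jag2 neighbouring genes overlapped in their infant values, as did Hey1 with Notch1. In young adult EC the order was Dll4, Hey1, Notch1, Dll1, Hes1, Jag1, Notch4, Jag2, Heyl and Notch3. Hey1 overlapped with Notch1, Dll1 with Hes1, Hes1 with Jag1 and Jag1 with Notch4, whereas the other pairs of neighbours stood apart. Dll4 stood above 93.7% of all genes in infant and 94% in young adult EC, whereas Notch3 stood above 12% and 1.9%.

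Among the ligands Dll4, which restrains sprouting, was the most abundant at both ages. It measured 60.6, 70.9 and 49.3 RPKM in infant replicates 1 to 3, against 67.8, 66.2 and 66.0 RPKM in the same order for young adult EC. The young adult values lay within the infant range, and the log2 fold change of 0.16 had a 95% interval of -0.16 to 0.48 (limma adjusted p 0.428). The spread was wider in infant EC, with a coefficient of variation of 17.9% against 1.48%. Set against the endothelial marker sum of the same library, the log2 ratio of Dll4 was lower in all 3 young adult libraries, by 0.37 on average (from -5.93 ± 0.11 to -6.29 ± 0.08, SD over 3 libraries each, exact two-sided permutation p 0.1, adjusted over the 11 ratios of this kind 0.157). With 3 against 3 libraries 0.1 is the smallest p this test allows. The endothelial marker sum is weighted towards its highest markers, Egfl7 above all.

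Dll1, a ligand known for its part in arterial growth and identity, measured 4.1, 5.2 and 3.9 RPKM in infant replicates 1 to 3, against 21.0, 11.4 and 12.0 RPKM in the same order for young adult EC. All young adult libraries were above all infant libraries, and young adult replicate 1 stood well above the other two. Dll1 rose from 4.4 ± 0.70 to 14.8 ± 5.38 RPKM (mean ± SD of 3 libraries), with a ratio of means of 3.36 and a change on the log2 scale of 1.51 ± 0.22 (SE, limma adjusted p 0.00453). It moved from above 39.7% to above 73.2% of all genes. The call held in all 6 fits that each left out 1 library, with log2 fold changes of 1.24 to 1.65, the lowest without young adult replicate 1. Tested against the fold threshold itself (limma treat) it was not called, with an adjusted p of 0.216. Relative to Dll4 in the same library, Dll1 was at a log2 ratio of -3.85, -3.74 and -3.63 in infant and of -1.69, -2.53 and -2.45 in young adult libraries. This ratio was higher by 1.52 in young adult EC (exact two-sided permutation p 0.1, adjusted 0.157), and by 1.35 with 1 RPKM instead of 0.1 RPKM added to each part.

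The Jagged genes differed less. Jag1, whose protein counteracts DLL4 in sprouting vessels, measured 4.8, 4.4 and 5.4 RPKM in the infant group, against 11.8, 7.0 and 6.5 RPKM in the young adult group. The groups did not overlap, yet the log2 fold change of 0.65 ± 0.20 (SE) had a limma adjusted p of 0.0503. As for Dll1, young adult replicate 1 was the highest, and without it the log2 fold change was 0.40 (adjusted p 0.0762). The adjusted p was under 0.05 in 6 of 22 alternative fits, but Jag1 was called in none. Jag2 measured 4.9, 3.1 and 3.4 RPKM in the infant group, against 2.7, 2.8 and 2.8 RPKM in the young adult group. All young adult values lay below the infant values, with a log2 fold change of -0.33 and a 95% interval of -0.68 to 0.01 (limma adjusted p 0.136). The log2 ratio of Jag2 to Jag1 was 0.03, -0.49 and -0.65 in infant and -2.09, -1.29 and -1.19 in young adult libraries, a difference of -1.15 with no overlap (exact two-sided permutation p 0.1, adjusted 0.157).

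As a description added after the values were seen, shares of the 4 ligands' summed RPKM were taken, in which Dll4 made up 81.9 ± 2.68% of the infant and 72.3 ± 5.80% of the young adult sum, and Dll1 6.01 ± 0.43% and 15.7 ± 4.02% (SD over 3 libraries each). Jag1 made up 5.26 to 8.71% and 7.45 to 11.4%, with overlapping groups, and Jag2 3.71 to 6.59% and 2.61 to 3.21%. The summed RPKM of the ligands was 73.3 ± 10.8 among infant and 92.7 ± 9.21 among young adult libraries.

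**Figure D2:**
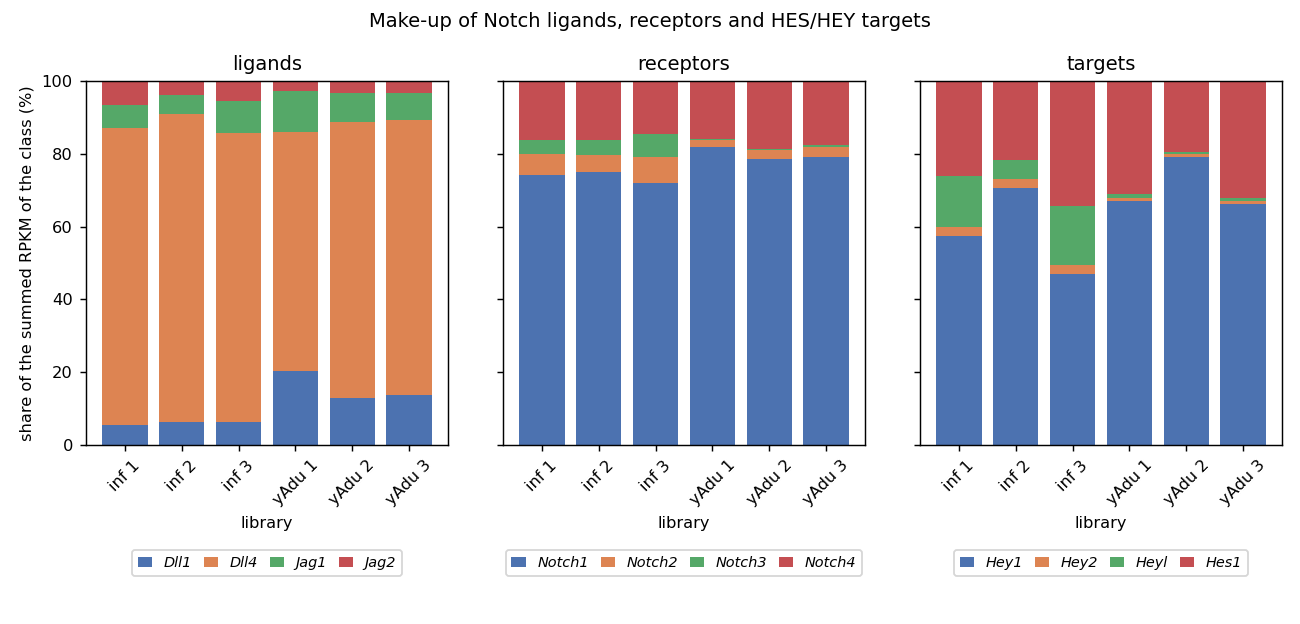
Stacked bars give each gene's share, in percent, of the summed RPKM of ligands (left), receptors (middle) and HES/HEY targets (right) in infant (inf) and young adult (yAdu) libraries. The share of Dll1 among ligands was 5.51 to 6.29% in infant and 13 to 20.3% in young adult libraries, and Heyl and Notch3 nearly vanish from the young adult bars.

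Of the receptors Notch1 was the most abundant. It measured 21.2, 21.9 and 18.7 RPKM in the infant group, against 34.5, 27.7 and 28.1 RPKM in the young adult group, so that every young adult library exceeded every infant library. Its mean went from 20.6 ± 1.68 to 30.1 ± 3.82 RPKM (mean ± SD of 3 libraries), with a ratio of means of 1.46 and a change on the log2 scale of 0.52 ± 0.12 (SE, limma adjusted p 0.0186), under the fold threshold. Notch4, a receptor gene largely restricted to endothelium, measured 4.6, 4.7 and 3.8 RPKM in the infant group, against 6.8, 6.6 and 6.3 RPKM in the young adult group. It too was without overlap, with a ratio of means of 1.5 and a change on the log2 scale of 0.50 ± 0.10 (SE, limma adjusted p 0.0149). In the fits that each left out 1 library the adjusted p stayed under 0.05 in 2 of 6 cases for Notch1 and in 4 of 6 for Notch4. It was highest without infant replicate 3 for Notch1 (0.063) and without young adult replicate 2 for Notch4 (0.0596).

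Notch1 and Notch4 were also set against the endothelial markers, whose sum is weighted towards Egfl7 (log2 fold change 0.64) and other high genes. Of the 13 markers 11 had a positive log2 fold change and 2 a negative one, Kdr (-0.01) and Erg (-0.02), and 11 did not pass the test. Ratios to single markers were not tested. The log2 ratio of Notch1 to the endothelial marker sum was -7.46 ± 0.21 among infant and -7.44 ± 0.23 among young adult libraries (SD over 3 each), and that of Notch4 was -9.67 ± 0.20 and -9.62 ± 0.11. The differences of 0.01 and 0.06 were smaller than these spreads and changed sign without infant replicate 2, to -0.10 and -0.05, and that of Notch1 also without young adult replicate 1, to -0.12. When each library was scaled to the same endothelial marker sum, all genes together had a median of -0.51, and Notch1 and Notch4 had log2 fold changes of 0.02 (limma adjusted p 0.942) and 0.06 (adjusted p 0.784). Relative to that median they were 0.53 and 0.57 higher, against 0.59 and 0.57 as deposited. The ratio of Notch4 to Notch1 differed by 0.04 (exact two-sided permutation p 0.8), a difference that changed sign without young adult replicate 2 (-0.02).

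Notch3 was measured at 1.1, 1.2 and 1.6 RPKM in infant libraries and at 0.1, 0.1 and 0.2 RPKM in young adult libraries. The groups did not overlap, and infant replicate 2 was not the lowest infant library. Notch3 fell from 1.3 ± 0.26 to 0.133 ± 0.06 RPKM (mean ± SD of 3 libraries), with a log2 fold change of -1.02 ± 0.15 (SE, limma adjusted p 0.00456). The young adult values stood at the rounding step of the table, so the ratio of the means, 0.103, is only roughly known. The call held in all 6 fits without 1 library (-1.08 to -0.92) and was lost at a pseudocount of 5 (-0.29), under quantile normalization (-0.59) and under limma treat. The log2 ratio of Notch3 to Notch1 was -3.90 ± 0.38 among infant and -7.04 ± 0.45 among young adult libraries, a difference of -3.14 with no overlap (exact two-sided permutation p 0.1, adjusted 0.157). With 1 RPKM instead of 0.1 RPKM added to each part it was -1.54. Notch2, the remaining receptor gene and not one of the 10, measured 1.7, 1.4 and 1.9 RPKM in the infant group, against 0.8, 0.8 and 0.9 RPKM in the young adult group (log2 fold change -0.54 ± 0.13, adjusted p 0.0229, under the fold threshold). The ratio of means of Notch2 was 0.5, and at a pseudocount of 0.1 it was called lower. Over the 4 receptors Notch1 made up 73.7 ± 1.59% of the summed RPKM in infant and 79.9 ± 1.65% in young adult EC, Notch4 15.6 ± 0.85% and 17.5 ± 1.33%, Notch2 6.01 ± 1.26% and 2.23 ± 0.32% and Notch3 4.70 ± 1.26% and 0.361 ± 0.18%.

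**Figure D3:**
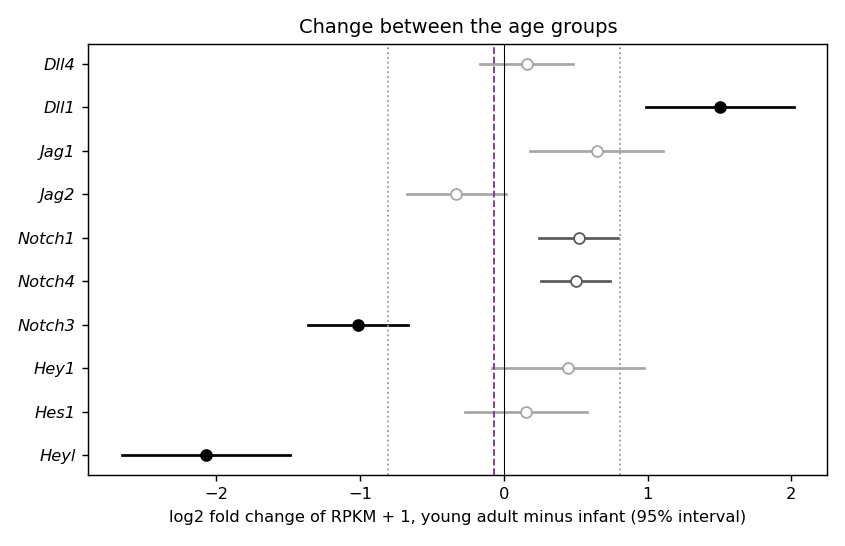
Points give the log2 fold change of RPKM + 1, young adult minus infant, and lines its 95% interval for each gene. Filled black points are called, open dark grey points have an adjusted p under 0.05 only, and open light grey points did not pass. Dotted lines mark the fold threshold in either direction and the dashed line the median of all tested genes, -0.07. Dll1 lies to the right of the threshold and Notch3 and Heyl to the left.

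Hey1 and Hes1, repressor genes induced by Notch in EC, did not differ detectably. Hey1 measured 24.7, 38.1 and 20.4 RPKM in the infant group, against 37.8, 43.5 and 30.6 RPKM in the young adult group. Infant replicate 2 lay among the young adult libraries. The log2 fold change was 0.45 with a 95% interval of -0.08 to 0.98 (limma adjusted p 0.18), and without infant replicate 2 it was 0.69 (adjusted p 0.0129). Hes1 measured 11.2, 11.7 and 15.0 RPKM in the infant group, against 17.5, 10.7 and 14.8 RPKM in the young adult group, with full overlap and a log2 fold change of 0.15 (95% interval -0.27 to 0.58, limma adjusted p 0.564). When scaled to the endothelial marker sum, Dll4, Hey1 and Hes1 changed sign, to -0.36, -0.06 and -0.34, and were 0.15, 0.45 and 0.17 above the median of all genes under that scaling.

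Heyl, a HEY gene also known as a Notch target in smooth muscle, had the log2 fold change of largest size among the 10 on the log2(RPKM + 1) scale. At a pseudocount of 5 that of Dll1 was larger (1.04 against -0.90). It measured 6.0, 2.9 and 7.0 RPKM in the infant group, against 0.5, 0.4 and 0.4 RPKM in the young adult group. Infant replicate 2 was the lowest infant library by a wide margin and still well above every young adult library. Heyl fell from 5.3 ± 2.14 to 0.433 ± 0.06 RPKM (mean ± SD of 3 libraries), with a ratio of means of 0.0818 and a change on the log2 scale of -2.07 ± 0.25 (SE, limma adjusted p 0.00241). The call held in all 22 alternative fits, limma treat included, with the adjusted p ranging from 1.07e-05 to 0.0447. Heyl went from above 44.9% to above 6.14% of all genes. Its log2 ratio to Hey1 was -2.02, -3.67 and -1.53 in infant and -5.98, -6.45 and -5.94 in young adult libraries, -3.72 apart on average (p 0.1, exact permutation, two-sided, adjusted 0.157). Among the 4 HES and HEY genes Hey1, Hey2, Heyl and Hes1, Heyl took 14, 5.37 and 16.1% of the summed RPKM in infant replicates 1 to 3 and 0.727 to 0.888% in young adult libraries. Hey2, a HEY gene of arterial EC, measured 1.1, 1.3 and 1.1 RPKM in the infant group, against 0.5, 0.4 and 0.4 RPKM in the young adult group (log2 fold change -0.60 ± 0.13, adjusted p 0.0175, under the fold threshold). The added 1 RPKM compresses so low a gene. The ratio of means of Hey2 was 0.371, and at a pseudocount of 0.1 it was called lower.

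The 2 genes that fell, Notch3 and Heyl, were set beside markers of mural cells. Of the 14 mural markers 12 were called lower, the median of all 14 being -2.39 on the log2 scale, and 0 were at 0 in all young adult libraries. The receptor gene Pdgfrb, which defines mural cells but is also expressed by fibroblasts, measured 69.4, 17.4 and 57.1 RPKM in the infant group, against 1.2, 2.2 and 1.9 RPKM in the young adult group. The contractile gene Acta2 measured 60.8, 17.8 and 74.4 RPKM and 3.2, 3.7 and 4.3 RPKM. The pericyte gene Cspg4 measured 1.7, 1.0 and 1.6 RPKM at the infant age and never more than 0.1 RPKM later, and Rgs5 3.3 ± 1.10 and 1.83 ± 0.31 RPKM (log2 fold change -0.59, adjusted p 0.0643). Mcam, which EC express as well, made up most of the young adult sum, with 91.2, 75.4 and 72.8 RPKM.

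Relative to the sum of all 14 markers, the log2 ratio of Heyl was lower in young adult EC by 1.69 and that of Notch3 by 1.03 (exact two-sided permutation p 0.1 each, adjusted 0.157). These values depend on the 0.1 RPKM added to each part, and with 1 RPKM added the differences were -0.52 for Heyl and 0.54 for Notch3. Relative to the 13 markers without Mcam, a sum chosen after seeing the data, Heyl was at -5.59, -5.52 and -5.57 in infant and -5.03, -5.84 and -5.73 in young adult libraries, which is 0.03 higher on average (p 1.0, exact permutation, two-sided). Heyl had nearly the same ratio to these markers in the 3 infant libraries, infant replicate 2 included, while the marker sum varied 2.44-fold and Heyl 2.41-fold among them. Notch3 relative to the same 13 markers was at -7.93, -6.73 and -7.63 in infant and -6.61, -7.16 and -6.46 in young adult libraries, which is 0.68 higher on average (p 0.2, exact permutation, two-sided). These 13-marker ratios also had 0.1 RPKM added to each part, and no other addition was tried. For Notch3 that is of the size of its young adult values (0.1, 0.1 and 0.2 RPKM), so the direction of its difference is not settled. Notch3 did not share the drop of infant replicate 2, which 10 of the 14 mural markers showed. The mural markers Higd1b (9.7, 11.4 and 15.8 RPKM in infant replicates 1 to 3), Ndufa4l2 (16.9, 17.5 and 24.1), Cox4i2 and Mcam did not share it either. The part of mural cells or fibroblasts in the values of Notch3 and Heyl was not tested.

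**Figure D4:**
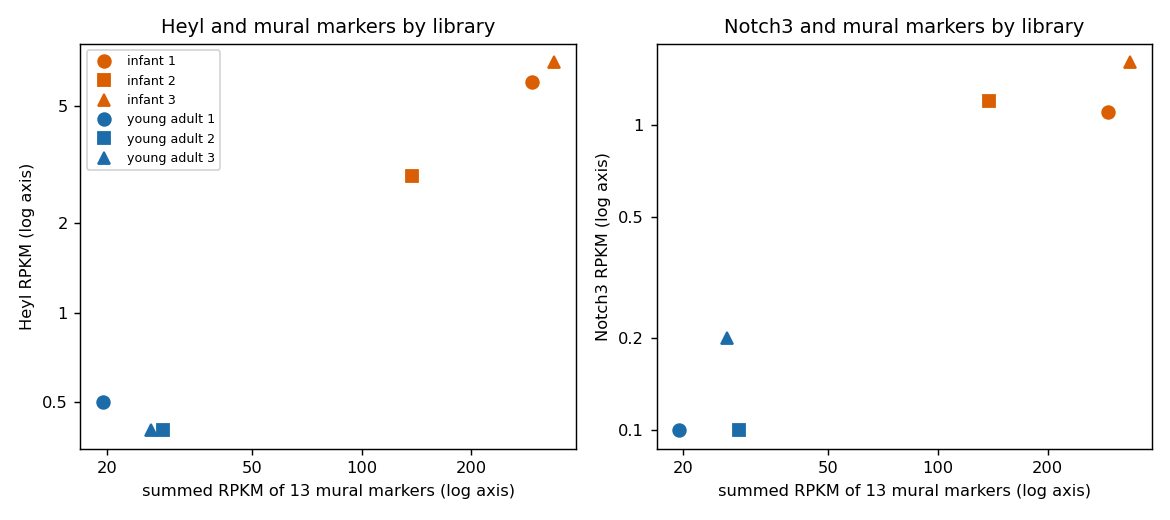
RPKM of Heyl (left) and Notch3 (right) against the summed RPKM of 13 mural markers without Mcam, both on log axes, with 1 point per library. Heyl is ordered like the sum in the infant libraries, with infant replicate 2 at 137.7 RPKM of markers and 2.9 RPKM of Heyl, and the young adult libraries lie at 19.5 to 28.5 RPKM of markers.

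Genes whose profile over the 6 libraries was most like that of a called gene were ranked by the root mean square difference between centred log2(RPKM + 1) values, among 6977 genes with a mean of at least 5 RPKM. For Dll1 these were Ptpru (0.156), Vegfc (0.177) and Gpr182 (0.194). Vegfc, which encodes a lymphangiogenic growth factor, measured 2.4 to 2.8 RPKM in infant and 6.6 to 9.9 RPKM in young adult libraries and was highest in young adult replicate 1, as was Dll1. For Heyl they were Rasl11a (0.101), Rnd3 (0.123) and Ecm2 (0.132), each lowest among the infant libraries in replicate 2. For Notch3 they were Ehd3 (0.0659), Tgif1 (0.0712) and Tpm1 (0.0964). The added 1 compresses the change of a gene as low as Notch3, whose ratio of means was 0.103, and Ehd3 went from 9 to 10.2 RPKM in infant to 4.2 to 4.7 RPKM in young adult libraries, a smaller change in RPKM ratio. As the 6 libraries fall into 2 groups, this likeness includes the difference between the ages.

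The other genes of the pathway were set beside all tested genes. Of 64 further Notch pathway genes listed by role, 52 were tested, of which 0 were called higher and 3 lower (Dtx4, Tle3 and Dtx3), against 3.33% and 8.1% of all genes. Counting the calls, 6 of the 52 were higher and 9 lower with an adjusted p under 0.05, near the 9.26% and 16.2% of all tested genes, and 37 did not pass (the same fit, limma with Benjamini-Hochberg adjustment). At an unadjusted p under 0.05, 8 of the 52 were higher and 14 lower, near the 15% and 25.4% of all tested genes. With limma array weights 2 genes, Dtx3l and Numb, were called higher. The median log2 fold change was -0.11, against -0.07 for all tested genes.

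In the nuclear complex 9 genes were tested and 0 were called. Rbpj, which encodes the DNA-binding partner of all Notch receptors, measured 12.9, 7.8 and 10.8 RPKM in the infant group, against 6.6, 7.7 and 6.5 RPKM in the young adult group, with a log2 fold change of -0.51 ± 0.17 (SE, limma adjusted p 0.0594). Of the Mastermind coactivators, Maml3 was lower, from 3.67 ± 0.06 to 1.73 ± 0.15 RPKM (log2 fold change -0.77 ± 0.10, adjusted p 0.00325), Maml1 was lower by 0.37 on the log2 scale (adjusted p 0.0341) and Maml2 measured 18.8 ± 0.21 and 21.8 ± 3.71 RPKM (adjusted p 0.313). On the log2(RPKM + 1) scale all were under the fold threshold. The ratio of means of Maml3 was 0.473, and at a pseudocount of 0.1 it was called lower. The histone acetyltransferase gene Kat2a was higher (0.45 ± 0.10, adjusted p 0.0179).

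Among 11 corepressor genes Tle3 was called lower (from 2.97 ± 0.67 to 1.13 ± 0.32 RPKM, log2 fold change -0.89 ± 0.17, limma adjusted p 0.0117), and its call was lost without young adult replicate 1 or 2. Its relatives Tle1 (0.55, adjusted p 0.0322) and Tle4 (0.43, adjusted p 0.0423) were higher, and the corepressor genes Cir1 (-0.37, adjusted p 0.0383) and Kdm5a (-0.38, adjusted p 0.0462) lower, under the fold threshold. The log2 fold change was negative for 9 of the 11, against 7295 of all 12458 tested genes, and 6 of the 11 did not pass the test. Of the 10 protease genes, Psenen, a gamma-secretase subunit gene, was higher by 0.39 (adjusted p 0.0484) and the other 9, Adam10 among them, did not pass.

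None of the 8 tested glycosyltransferase genes passed the test. Mfng, one of the Fringe enzymes that tune how receptors answer Delta-like and Jagged ligands, was by far the most abundant Fringe gene, at 86.6 ± 10.2 RPKM early and 95.1 ± 13.2 RPKM later (a log2 difference of 0.13, adjusted p 0.52). Lfng measured 4.33 ± 0.91 and 5.93 ± 0.99 RPKM (0.38 ± 0.16, adjusted p 0.115). Nrarp, a target whose protein restrains Notch, measured 1.5, 2.6 and 2.2 RPKM in the infant group, against 3.5, 1.6 and 2.0 RPKM in the young adult group, with overlapping groups (adjusted p 0.785).

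Among the 10 ubiquitin ligase and endocytic regulator genes, the Deltex gene Dtx4 was called lower, from 1.3, 0.9 and 2.1 RPKM to 0.1 RPKM in each young adult library (log2 fold change -1.12 ± 0.20, limma adjusted p 0.00862). Dtx4, like Notch2 and Hey2, reached the minimum of 1 RPKM in infant libraries alone, and Dtx4 went untested when a mean of at least 1 RPKM was required. Dtx3 was called lower as well, from 10.5 ± 2.84 to 5.33 ± 0.64 RPKM (-0.84 ± 0.19, adjusted p 0.0193), and lost the call without infant replicate 1 or 3 or young adult replicate 1 or 2. Dtx4 and Dtx3 were lowest among the infant libraries in replicate 2. Dtx3l (0.71 ± 0.16, adjusted p 0.0194) and Numb (0.67 ± 0.20, adjusted p 0.0424), whose protein inhibits Notch receptors, were higher under the fold threshold and were called without infant replicate 2.

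**Figure D5:**
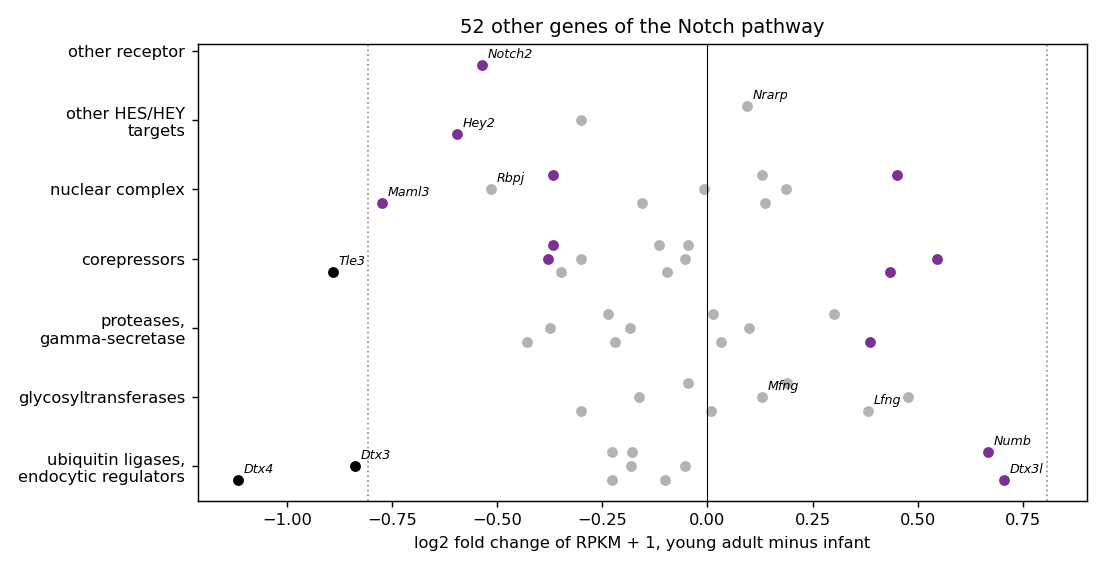
Log2 fold change of RPKM + 1, young adult minus infant, for 52 further Notch pathway genes, 1 point per gene, by role. Black points are called, purple points have an adjusted p under 0.05 only and grey points did not pass, and dotted lines mark the fold threshold. The called genes, Dtx4, Tle3 and Dtx3, all lie on the left.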

How the data were processed

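EC were sorted by flow cytometry, RNA was amplified from low input and sequenced in paired ends, per the labels and the study's methods. The authors aligned reads to mm10 with STAR and deposited RPKM per RefSeq transcript, rounded to 1 decimal. Tool versions and the RPKM program are not given in the sources used here. The table held 17241 transcript rows of 12623 genes and 0 columns of other samples. A gene with several rows was represented by the row of highest mean, with a sum over rows as an alternative. As reads per library are not given in the sources used here, the counting error of a value could not be estimated. RPKM summed to 362970 to 428155 per library.

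The 12458 genes with at least 1 RPKM in at least 1 library were fitted with limma 3.58.1 (R 4.3.3, intensity trend) on log2(RPKM + 1), infant against young adult, with Benjamini-Hochberg adjustment. A pseudocount understates the change of low genes. Calls required an adjusted p under 0.05 and a log2 fold change over 0.81 in size. Ratios within a library, with 0.1 RPKM added to each part, were compared by exact two-sided permutation tests. Their p-values were adjusted by Benjamini-Hochberg over the ratios (scipy 1.17.1). The fit was tested on simulated data. Libraries are separate samples by their labels, and p-values measure the spread between them. Replicate numbers showed no pairing of libraries across ages, although 3 libraries per age cannot exclude one.

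The members and gene lists were chosen with earlier results of these data known. Genes named were all 10 members with their values, further pathway genes that were called, Notch2, Hey2, Rbpj, Lfng, Mfng and Nrarp, the 3 genes most like each called member, and defining markers. Besides the mural ones given above, Pdgfra (log2 fold change -4.29) and Col1a1 (-5.87) of fibroblasts and Ptprc of leukocytes (-1.54) were called lower. The epithelial Epcam (-0.62) and the endothelial Pecam1 (0.69), Cdh5 (0.28) and Kdr (-0.01) did not pass the test. Other pathway genes were named after their values were seen. Of the 6 lists of cell type markers, the arterial one (7 genes) summed to 188.6 to 261.4 RPKM in infant and 193.9 to 292.2 RPKM in young adult libraries, and 1 gene, Gja5, was called lower. Alternatives were other pseudocounts, filters, normalizations and weights, limma treat, a replicate block and leaving out libraries. The mural sum without Mcam, and leaving out infant replicate 2 together with young adult replicate 1, were chosen after seeing the data. The 12 listed pathway genes that were not analysed, all 4 further ligands among them, had no row in the table of transcript levels.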

Additional observations from a re-analysis of the deposited data

How the results depend on the processing

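In the fits that each left out 1 library, 1 to 1 of the 10 genes was called higher and 2 to 2 lower, and of the 52 further pathway genes 0 to 2 were called higher (2 without infant replicate 2) and 1 to 4 lower (1 without young adult replicate 1 or 2). Of the 10 genes 1 was called lower at a pseudocount of 5, with a mean of at least 1 RPKM required (Notch3 then went untested), under quantile normalization and under limma treat, where 0 were called higher. At a pseudocount of 0.1, 6 of the further pathway genes were called lower, Hey2, Maml3 and Notch2 among them. Of the further pathway genes 9 were called lower when scaled to the endothelial marker sum. At a pseudocount of 5, under quantile normalization and under limma treat 0 of them were. With array weights 2 were called higher, and 2 without infant replicate 2 and young adult replicate 1 together, a choice made after seeing the data. Over all genes 1424 were called as reported, 578 at a pseudocount of 5, 176 under treat, 2769 under endothelial scaling and 842 to 1874 with 1 library left out. Of the calls 29.1% were higher as reported, 46.5% under quantile normalization, 41.5% at a pseudocount of 5 and 6.14% under endothelial scaling.

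Scaled to the endothelial marker sum, Dll4 was at -0.36, Hey1 at -0.060 and Hes1 at -0.34, and without the 2 libraries together Hes1 was at -0.039. Differences in log2 ratio with 1 RPKM added were -0.023 for Notch4 to Notch1, 0.54 for Notch3 to mural markers, -0.0040 for Notch1 and -0.027 for Notch4 to endothelial markers. Summing transcript rows gave -0.034 for Notch1 to endothelial markers. Without Mcam, and with 0.1 RPKM added, the ratios to mural markers differed by 0.68 for Notch3 and 0.027 for Heyl. With 1 library left out the ranges were -0.018 to 0.12 for Notch4 to Notch1, -0.027 to 0.60 for Hey1 to Hes1, -0.12 to 0.086 for Notch1 and -0.052 to 0.15 for Notch4 to endothelial markers. The cause was not tested. The fit with the replicate number as a block called 1 of the 10 genes higher and 2 lower, 0 and 3 of the further pathway genes, and 1371 of all genes. Deviations of same-numbered libraries correlated at 0.03, -0.11 and -0.02, and not every library correlated best with its own number. These values showed no pairing by number, but with 3 libraries per age they cannot exclude that same-numbered libraries were handled together. Reads per library are not given, and levels near 0.1 RPKM are limited by rounding.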
